A study of Mus musculus with 6 samples.

Results

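Ccl2, Ccl3, Ccl4, Ccl5, Ccl7, Ccl9, Ccl22, Cxcl2, Cxcl10 and Cxcl16 are 10 chemokine genes of the mouse, 7 of the CC and 3 of the CXC family. They were taken by symbol from the table of gene counts, which holds 39089 genes, and were followed through all 6 libraries. The libraries were made from RAW264.7 cells, a leukemia-derived mouse macrophage line whose genotype is labelled WT. All were treated for 48 h with 100 ng/mL of LPS (lipopolysaccharide, an endotoxin of bacteria). In 3 libraries (LPS) this was the only treatment, and the other 3 (LIPUS) also came from cells exposed to low-intensity pulsed ultrasound, given as 2 sessions of 25 min at 45 mW/cm2 with an interval of 24 h. Cells without LPS were not analysed here, so the induction of these genes by LPS was not measured. The labels number the libraries as repeats without saying whether they came from separate cultures, so p-values measure the spread between these libraries, which may be technical. RNA was measured, not secreted protein.

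Chemokines are small secreted proteins that guide leukocytes along concentration gradients by binding G protein-coupled receptors. They are classed by the spacing of their first cysteines, which are adjacent in CC chemokines and separated by a single residue in CXC chemokines. In macrophages, bacterial lipopolysaccharide acts through Tlr4, NF-kB and interferon regulatory factors to switch on many of these genes. Their messages are often short-lived, since AU-rich elements in the 3' end recruit decay factors such as tristetraprolin, the product of Zfp36.

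The genes lie on 3 chromosomes of the mm10 build. Ccl5, Ccl9, Ccl3 and Ccl4 fall within 138906 bases of chromosome 11, and Ccl2 and Ccl7 lie on the same chromosome with 8259 bases between them. Cxcl16 is also on chromosome 11, Cxcl2 and Cxcl10 are on chromosome 5 with 1440699 bases between them, and Ccl22 is on chromosome 8. The RefSeq promoter table (GRCm38.p6) matched 5 of the 10 genes, namely Ccl3, Ccl9, Ccl22, Cxcl2 and Cxcl10. The 250 bases upstream of the start are shown for Ccl3, the most abundant of the 10, for Cxcl2, the most abundant CXC gene, and for Cxcl10, the interferon-inducible gene at the low end of the range. They are written 5' to 3' along the transcribed strand, and capitals mark matches to the NF-kB motif.
Ccl3 (chr11:83649379-83649628, minus strand): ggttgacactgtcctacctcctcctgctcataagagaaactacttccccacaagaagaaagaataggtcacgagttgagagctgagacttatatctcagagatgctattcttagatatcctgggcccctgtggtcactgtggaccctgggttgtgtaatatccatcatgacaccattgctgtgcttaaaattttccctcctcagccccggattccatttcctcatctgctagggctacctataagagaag
Cxcl2 (chr5:90903649-90903898, plus strand): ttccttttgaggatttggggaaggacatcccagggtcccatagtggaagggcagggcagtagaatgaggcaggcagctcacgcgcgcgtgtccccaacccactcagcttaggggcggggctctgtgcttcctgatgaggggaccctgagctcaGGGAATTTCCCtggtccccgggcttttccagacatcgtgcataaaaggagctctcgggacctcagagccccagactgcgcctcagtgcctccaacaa
Cxcl10 (chr5:92348890-92349139, minus strand): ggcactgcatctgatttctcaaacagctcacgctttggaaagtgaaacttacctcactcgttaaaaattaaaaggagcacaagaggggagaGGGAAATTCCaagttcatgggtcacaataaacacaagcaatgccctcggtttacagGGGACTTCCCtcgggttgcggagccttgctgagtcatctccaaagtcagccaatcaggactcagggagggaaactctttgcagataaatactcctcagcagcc

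The NF-kB motif, searched on both strands, was found in 3 of the 5 promoters (Ccl9, Cxcl2 and Cxcl10), while 3.90% of the 32851 promoters in the table hold it. Cxcl2 has it on both strands in a single stretch between 97 and 87 bases upstream of the start, so its pair of matches overlap. Cxcl10 has separate matches that begin 159 and 103 bases upstream. The AP-1 motif TGANTCA, which reads the same on both strands, occurs in Ccl9 and Cxcl10 and in 6.75% of all promoters. The interferon-stimulated response element, searched on both strands as GAAA, any 2 bases and GAAA, occurs in Cxcl10 alone of the 5, 213 bases upstream, and in 2.98% of all promoters. The TATA box TATAAA, searched in the transcribed direction only, occurs in Ccl9 alone of the 5 and in 7.59% of all promoters. No match means only that these letters are not in the 250 bases searched.

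The pentamer ATTTA, the core of AU-rich elements, was counted in the last 300 bases of the longest basic protein-coding GENCODE M21 transcript of each gene. It was present in 7 of the 10 chemokines and in 40.2% of 21761 genes. For Ccl5, Ccl9 and Ccl22, no match means only that ATTTA is not in the 300 bases searched. Ccl9 and Ccl22 have 2465 and 1813 bases after the stop codon, most of which were not searched. Ccl5 and Ccl2 have 199 and 275, so their windows include coding sequence. Ccl3 had 5 copies, and 1.31% of all genes had 4 or more. Cxcl2 was the only one of the 10 with the nonamer TTATTTATT, which occurs in 1.95% of genes. One site of 30 bases is shown for each of these genes on GRCm38, with ATTTA in capitals, and in each site ATTTA occurs at 2 positions.
Ccl3 (chr11:83648067-83648096, minus strand): ttATTTAATTTAatcctattggtttaatac
Cxcl2 (chr5:90905879-90905908, plus strand): agtggacacATTTATTTAttcatgtatttt

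The libraries held 14171061 to 15956693 counts, the LPS libraries being the deeper group. The macrophage label was checked with 10 markers: 9 passed the filter on low counts, and Mertk, with 8 counts summed over the LPS and 5 over the LIPUS group, did not. The summed level of these markers was 11225 to 11696 CPM (counts scaled to the TMM-adjusted library size) with LPS and 10525 to 12128 CPM with LIPUS. Markers of T cells summed to at most 0.14 CPM in any library, those of epithelial cells to at most 0.13, and those of B cells to at most 0.67, and 3 of 5 T cell and 4 of 5 epithelial markers found had no count. The neutrophil, dendritic cell and fibroblast lists summed to 0.81 to 1.61, 2.17 to 3.30 and 1.63 to 2.97 CPM over the libraries.

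Ccl3, a macrophage inflammatory protein that binds Ccr1, was by far the most abundant of the 10 chemokine transcripts. On the TPM scale, which divides counts by gene length and brings each library to a common total, its level was 2691 ± 116 (SD over the 6 libraries) with a range of 2525 to 2870, and it ranked 60 of all genes. Ccl9, a Ccr1 ligand known in mice for attracting monocytes and osteoclast precursors, came next at 449 ± 20.7 TPM, and the mean level of Ccl3 was 5.99 times that of Ccl9. Ccl3 made up 66.9% to 67.8% of the summed TPM of the 10 genes in every library, and Ccl3 and Ccl9 together made up 77.9% to 79.4%.

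Cxcl2, a neutrophil attractant that acts through Cxcr2, had 283 ± 28.2 TPM, and Ccl4, a macrophage inflammatory protein that attracts monocytes and T cells, had 278 ± 17.2 TPM. These neighbours could not be ordered: their ranges overlapped, and Cxcl2 was above Ccl4 in 2 of the 6 libraries. Ccl5, a ligand of Ccr1 that attracts T cells and monocytes, followed at 218 ± 10.6 TPM. Cxcl16, made as a membrane-anchored protein and released by the protease Adam10, had 42.0 ± 1.13 TPM.

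The monocyte attractants Ccl2 and Ccl7, both ligands of Ccr2, were lower, at 23.9 ± 2.52 and 7.14 ± 0.98 TPM. Cxcl10, which attracts activated T cells through Cxcr3, had 3.92 ± 0.93 TPM, and Ccl22, a Ccr4 ligand, had 0.64 ± 0.27 TPM. The means of Ccl3 and Ccl22 were 4183-fold apart, a ratio that is imprecise because Ccl22 ran from 0.15 to 0.87 TPM, near the limit of detection. Apart from the pair Cxcl2 and Ccl4, the ranges of neighbours in this order did not overlap over the 6 libraries. The 10 genes took 0.192% to 0.226% of all counts per library and 98.9% to 99.2% of the counts of the 39 chemokine genes listed. These counts are not divided by length and come mostly from Ccl3 and Ccl9. The 10 are not the most abundant 10 of the 39. By mean TPM over the 6 libraries, Ccl6 (15.9) lay above Ccl7, Cxcl10 and Ccl22. Ccl25 (6.50) and Pf4 (5.88) lay above Cxcl10 and Ccl22.

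**Figure D1:**
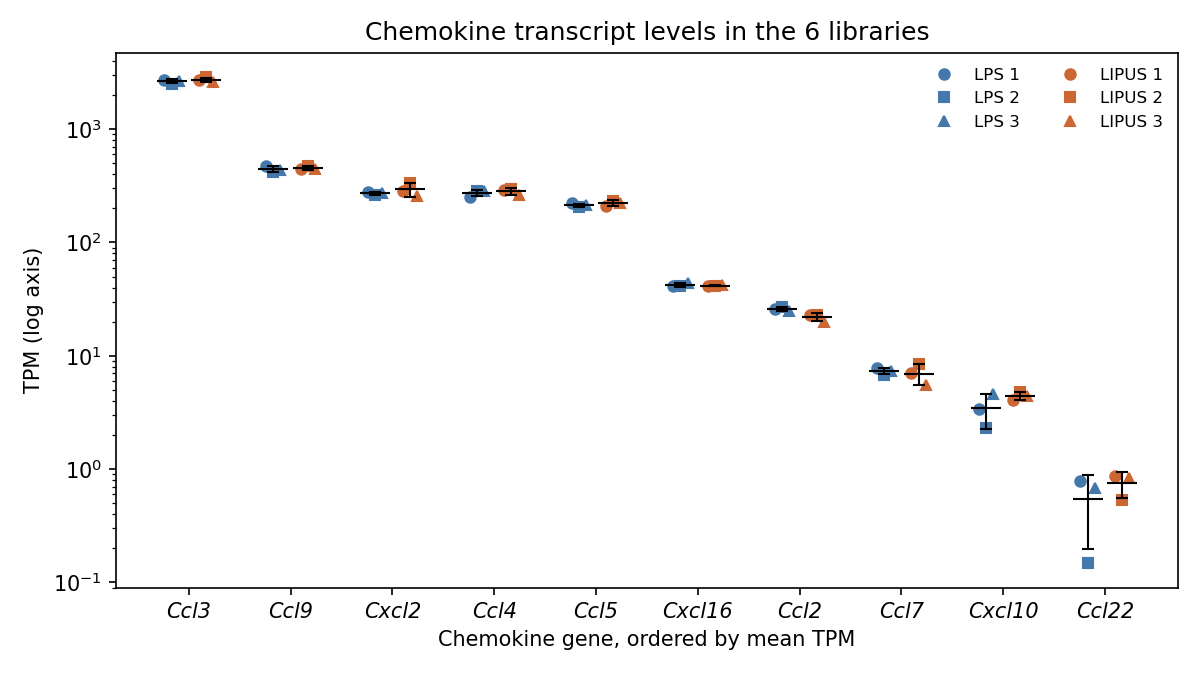
Level of each chemokine in TPM (log axis) in the 3 LPS and 3 LIPUS libraries, with genes ordered by mean TPM; each point is a library, the long bar is the group mean and the whiskers are the SD. Ccl3 lies above all others, from 2525 to 2870 TPM, and the groups overlap for every gene but Ccl2.

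The comparison of LIPUS with LPS libraries asks whether ultrasound goes with a different level of these transcripts in LPS-treated cells. None of the 10 chemokines passed the test. By edgeR's quasi-likelihood test, adjusted over 12571 genes, 0 of 10 had an adjusted p below 0.05 and 0 of 10 had an unadjusted p below 0.05. The shares of all genes were 0% (percent called, 0 genes) and 4.61% (579 genes), and DESeq2 and limma-voom also called 0 genes. All 10 genes passed the filter on low counts. The log2 fold change (LIPUS over LPS) was positive for 7 and negative for 3, with a median of 0.03 beside -0.01 over all genes tested, of which 52.4% were negative. This count and median depended on single libraries: without LIPUS library 2, 2 were positive and 8 negative with a median of -0.06, without LPS library 2 they were 4 and 6 with a median of -0.02, and without LIPUS library 3 they were 8 and 2 with a median of 0.09. In bulk RNA, fewer cells of a type and less RNA per cell cannot be told apart.

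Ccl2 had the smallest p of the 10. Its levels were 10.3, 10.3 and 9.69 CPM in LPS libraries 1 to 3 and 8.77, 9.46 and 7.25 CPM in LIPUS libraries 1 to 3. All LIPUS libraries lay below all LPS libraries, which held for Ccl2 alone of the 10, and 9.72% of tested genes had groups that did not overlap (4.63% with LIPUS lower). Its log2 fold change was -0.25 ± 0.13 (SE) with a 95% interval of -0.53 to 0.03 (edgeR, unadjusted p = 0.0753, adjusted p = 0.999), and 870 was its rank by p among 12571 genes. The estimate depended on LIPUS library 3, without which it was -0.14. In the authors' deposited table Ccl2 has a log2 fold change of -0.25 with an unadjusted p of 0.04998, and adjustment of the deposited p-values over all genes gives 1.

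Ccl7, which lies beside Ccl2 and shares its receptor, rested on 29 to 49 counts per library. It had 3.05, 2.603 and 2.89 CPM with LPS and 2.65, 3.44 and 2.003 CPM with LIPUS. The LIPUS group held both its highest and its lowest library, and the groups overlapped. This gave a log2 fold change of -0.08 ± 0.24 (95% interval -0.58 to 0.42, edgeR adjusted p = 0.999), and it was 0.097 when LIPUS library 3 was left out.

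Ccl3, Ccl4, Ccl5 and Ccl9, which lie together on chromosome 11, had SEs of 0.07 each. Ccl3 had 1069, 949 and 1035 CPM with LPS and 1007, 1157 and 943 CPM with LIPUS. LIPUS library 2 was its highest and LIPUS library 3 its lowest, so the LPS range lay inside the LIPUS range. The log2 fold change was 0.03 ± 0.07 (95% interval -0.12 to 0.17, edgeR adjusted p = 0.999). Ccl4 had 111, 119 and 123 CPM with LPS and 121, 134 and 104 CPM with LIPUS, a log2 fold change of 0.03 ± 0.07 (interval -0.12 to 0.18). Its LIPUS libraries again enclosed the LPS libraries, with library 2 at the top and library 3 at the bottom.

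Ccl5 had 57.9, 52.0 and 55.2 CPM with LPS and 52.8, 63.6 and 54.3 CPM with LIPUS, a log2 fold change of 0.05 ± 0.07 (interval -0.11 to 0.21). LIPUS library 2 stood above the other 5, which lay close together. Ccl9 had 701, 601 and 641 CPM with LPS and 629, 725 and 613 CPM with LIPUS, a log2 fold change of 0.02 ± 0.07 (interval -0.13 to 0.16). Its groups overlapped over most of their ranges. The adjusted p of Ccl4, Ccl5 and Ccl9 was 0.999 by edgeR. When LIPUS library 2 was left out, the log2 fold changes turned to -0.063 for Ccl3, -0.062 for Ccl4, -0.039 for Ccl5 and -0.061 for Ccl9. Leaving out LPS library 2 also turned Ccl3, to -0.020, and Ccl9, to -0.031, and leaving out LPS library 1 turned Ccl4, to -0.014.

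Ccl22 was near the limit of detection, with 11, 2 and 9 counts with LPS and 11, 7 and 10 with LIPUS. LPS library 2, with 2 counts, stood below the rest. The log2 fold change of 0.43 ± 0.51 had an interval of -0.65 to 1.51 (edgeR adjusted p = 0.999), and without LPS library 2 the estimate was -0.02. With all libraries and these few counts, the interval ran from 0.64 to 2.85 as a fold, so a 2-fold increase of Ccl22 lay within it.

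Among the CXC genes, Cxcl2 had 148.6, 135.7 and 144.8 CPM with LPS and 146.2, 186.3 and 127.6 CPM with LIPUS. LIPUS library 2 was well above the other 5, and LIPUS library 3 was the lowest. The log2 fold change was 0.10 ± 0.09 (interval -0.09 to 0.29, edgeR adjusted p = 0.999), and leaving out LIPUS library 2 gave -0.06, leaving out library 3 0.22. Cxcl10 rested on 19 to 38 counts and had 1.84, 1.21 and 2.49 CPM with LPS and 2.11, 2.66 and 2.21 CPM with LIPUS. LPS library 2 was the lowest, and the remaining LPS libraries lay on either side of LIPUS library 1. Its log2 fold change was 0.34 ± 0.29 (interval -0.26 to 0.94, edgeR adjusted p = 0.999), and 0.11 without LPS library 2. Cxcl16 had 37.0, 35.7 and 39.1 CPM with LPS and 35.5, 38.4 and 34.6 CPM with LIPUS, a log2 fold change of -0.04 ± 0.07 (interval -0.20 to 0.12). It varied least of the 10 between libraries of a group, with a within-group SD of 0.07 on the log2 scale.

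These intervals bound how large a difference the libraries allow. The 95% interval lay within 1.5-fold in either direction for 8 of the 10 chemokines and within 2-fold for 9, beside 80.1% and 92.7% of all genes tested. The gene outside 2-fold was Ccl22.

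**Figure D2:**
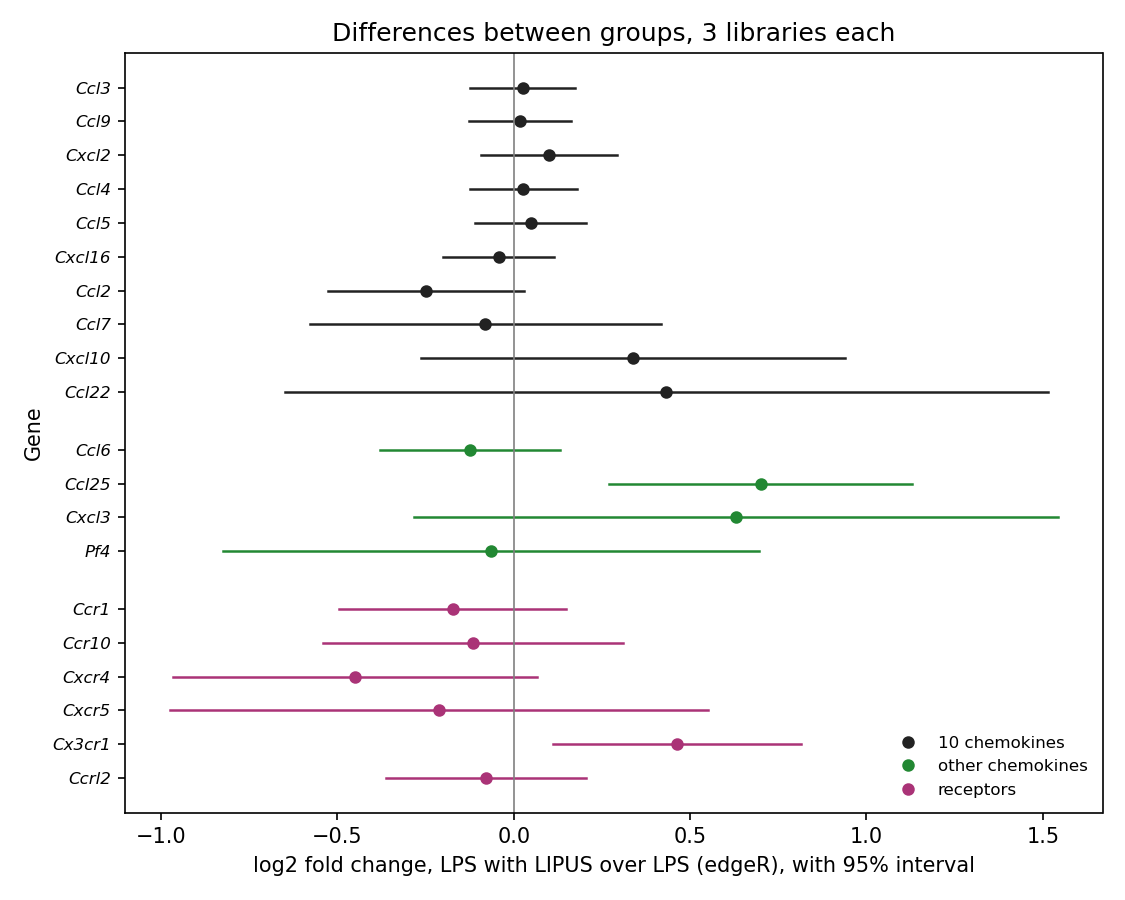
Log2 fold change of LIPUS over LPS by edgeR, as points with 95% intervals, for the 10 chemokines (black), the other chemokines tested (green) and the receptors with a mean of at least 1 CPM (purple). The intervals of all 10 chemokines include 0, and they widen from Ccl3 and Ccl9 to Ccl22, the least abundant.

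LIPUS libraries 2 and 3 stood at opposite ends for many of the 10 genes. LIPUS library 2 was the highest of the 6 for 7 of the 10 chemokines, while this was so for 20.6% of all genes tested. It was above the other LIPUS libraries for 9 of the 10, the exception being Ccl22, and for 35.7% of all genes. LIPUS library 3 was the lowest of the 6 for 6 of the 10 and for 20.9% of all genes. The SD on the log2 scale was wider in the LIPUS than in the LPS group for 8 of the 10 and for 59.2% of all genes. The exceptions were Cxcl10, with 0.41 in LPS and 0.15 in LIPUS, and Ccl22, with 0.51 and 0.18. The order of libraries was not particular to chemokines. In the related lists described below, Nfkbia, Irf7, Ctsl and Ccrl2 also had LIPUS library 2 highest and LIPUS library 3 lowest of the 6. Others did not, such as Rel, which was highest in LIPUS library 3. These examples were chosen after their values were seen, and Nfkbia, Irf7 and Ctsl lie outside the rule for named genes.

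The ratio of LIPUS library 2 to LIPUS library 3 had a median of 1.22 over the 10 chemokines and 0.996 over all genes tested. It was 1.46 for Cxcl2 and 1.71 for Ccl7. The genes share libraries and scaling factors, so they are not 10 independent observations of this difference, and no test was made of it. Ccl3 and Ccl9 had the most similar profiles, with a root mean square difference of 0.03 between their log2 deviations over the 6 libraries. The summed macrophage markers moved the same way: 10685, 12128 and 10525 CPM in LIPUS libraries 1 to 3, beside 11696, 11225 and 11371 CPM in the LPS libraries. LIPUS library 2 was thus the highest and LIPUS library 3 the lowest of the 6 for this sum, which is mostly Lyz2, the lysozyme gene, at 8855 and 7321 CPM in those libraries. By marker, 6 of the 9 tested were higher in LIPUS library 2 than in library 3, with a median ratio of 1.05. Csf1r, Ptprc and Cd14 were lower. LIPUS library 2 was the highest of the 6 for 4 of the 9, and LIPUS library 3 was the lowest for 1, Lyz2. The order of the sum was thus not that of most markers, and their part in the chemokine pattern was not tested.

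**Figure D3:**
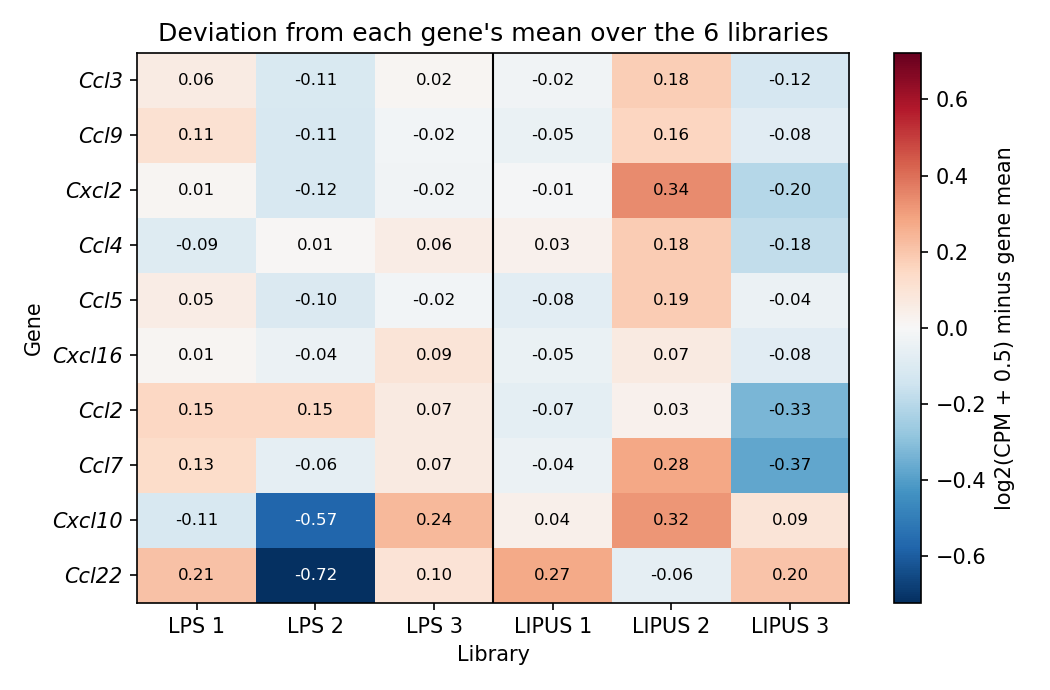
Deviation of each library from the gene's mean over the 6 libraries, as log2(CPM + 0.5), with genes in rows by mean level and libraries in columns; red is above and blue below the mean. LIPUS 2 is the reddest column, reaching 0.34 for Cxcl2, and LIPUS 3 is blue for 8 of the 10 genes.

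For Ccl2, the 5 genes with the most similar profile over the 6 libraries were Ndufb1, Smpd2, Ttc12, Mrps33 and Mrpl49, of 8605 genes with a mean of at least 10 CPM. Their root mean square differences from Ccl2 were 0.03, 0.03, 0.03, 0.05 and 0.06 on the log2 scale. Ndufb1 encodes a subunit of respiratory complex I, and Mrps33 and Mrpl49 encode proteins of the mitochondrial ribosome. The share of mitochondrial genes among the 8605 was not measured, and Smpd2 and Ttc12 are not described here, so no shared function is read from these 5. With 6 values per gene, profiles this close can occur among so many genes without any link. Of the 6 other chemokines that passed the same minimum, Cxcl16 was nearest to Ccl2, at 0.139, and ranked 1327. Ccl7, Cxcl10 and Ccl22 were below the minimum and not ranked, and among all 10 the nearest to Ccl2 was its neighbour Ccl7, at 0.134.

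The Ccl4 value carries a limit of its gene model. The deposited Ccl4 spans chr11:83648624-83664683 on the plus strand, and its first 755 bases overlap Ccl3, which spans chr11:83647843-83649378 on the minus strand. GENCODE M21 places the start of Ccl4 at 83662584 on the plus strand, beyond Ccl3. The extended start belongs to a predicted transcript of 883 bases, while the curated transcript has 660. The overlap is between gene spans, which include introns, and its exonic part was not measured. Whether the authors counted reads by strand is not given in the sources used here. How reads of the shared stretch were assigned to Ccl3 and Ccl4 is therefore unknown.

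In the transcript counts the predicted form of Ccl4 had 14.7% to 22.3% more reads than the curated form in each library. These counts are not exclusive: in LPS library 1 the Ccl4 gene had 1741 counts, the predicted form 1741 and the curated form 1506. Reads shared by the forms thus count for both, and the excess does not show that the predicted form is more abundant. By the curated form alone, a measure chosen after the data were seen, Ccl4 had 313.7 ± 22.1 TPM and lay above Cxcl2 in 6 of 6 libraries, against 4 of 6 by the gene count. The comparison between groups was little affected: the log2 fold change was 0.05 ± 0.08 for the curated and 0.03 ± 0.07 for the predicted form. By edgeR, 0 of 52257 transcripts passed an adjusted p of 0.05 (0% called), those of the 10 chemokines included.

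**Figure D4:**
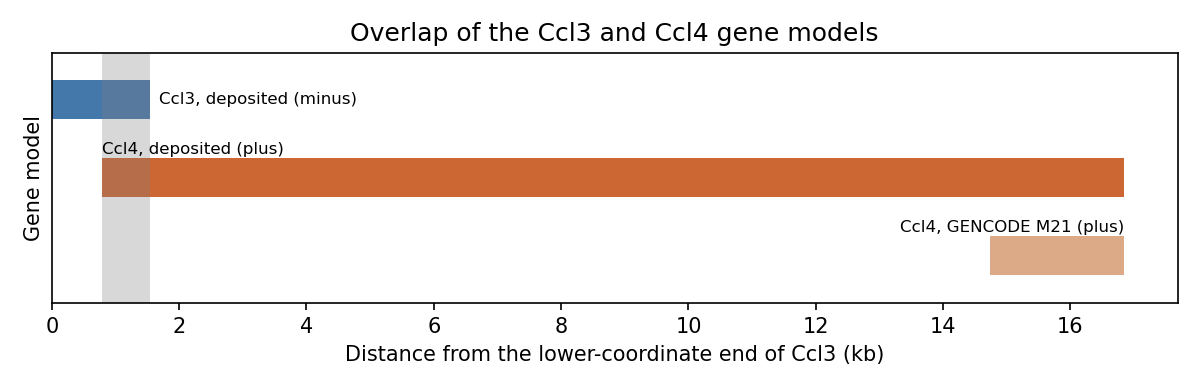
Map of the deposited Ccl3 and Ccl4 genes and the GENCODE M21 Ccl4 gene, drawn to scale as distance in kb from the lower-coordinate end of Ccl3, with the strand in brackets. The grey band marks the 755 bases where the deposited genes overlap.

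Most other chemokines were not expressed at a level that could be tested. Of 29 listed, 25 did not pass the filter on low counts, and 14 of these had no count in any library. The 4 tested were Ccl6, Ccl25, Cxcl3 and Pf4, and 0 of 4 were called. Ccl25, a thymus and gut chemokine that binds Ccr9, had 3.94, 2.86 and 2.69 CPM with LPS and 5.65, 4.21 and 5.595 CPM with LIPUS. All LIPUS libraries lay above all LPS libraries, as in 5.09% of genes. Its log2 fold change was 0.70 ± 0.20, which missed the threshold (edgeR adjusted p = 0.705).

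The log2 fold change of Cxcl3, another Cxcr2 ligand, was 0.63 ± 0.43 at 0.52 ± 0.23 CPM with LPS and 0.81 ± 0.11 CPM with LIPUS. Ccl6, a mouse CC chemokine related to Ccl9, had 11.5 ± 1.09 and 10.5 ± 0.70 CPM and a log2 fold change of -0.12 ± 0.12. Pf4, the platelet factor, had 1.69 ± 0.47 and 1.61 ± 0.90 CPM and a log2 fold change of -0.06 ± 0.36. These 3 had an adjusted p of 0.999 by edgeR, and their groups overlapped.

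Several receptors through which these chemokines act were near the limit of detection in these cells. They are given here for that pairing, and Ccr2, Ccr4, Cxcr2, Cxcr3 and Cxcr6 lie outside the rule for named genes. Ccr1, the receptor of Ccl3, Ccl5 and Ccl9, had the most counts of them, at 7.25, 7.43 and 7.20 CPM with LPS and 5.92, 5.68 and 7.81 CPM with LIPUS. The LIPUS libraries lay on both sides of the LPS libraries, and the log2 fold change was -0.17 ± 0.15 (edgeR adjusted p = 0.999). Ccr2, the receptor of Ccl2 and Ccl7, had 15, 19 and 10 counts with LPS and 14, 13 and 3 with LIPUS, a log2 fold change of -0.45 ± 0.46. Its lowest library was LIPUS library 3, with only 3 counts. That library was also the lowest for Ccl2 and Ccl7, as it was for 20.9% of all genes tested.

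Receptors for Cxcl2, Ccl22, Cxcl10 and Cxcl16 had too few counts to test. Cxcr2 had 2 counts in the LPS group and 2 in the LIPUS group, and Ccr4 had 0 and 3. Cxcr3, the receptor of Cxcl10, had 23 and 27 counts, a ratio of 1.252 relative to depth (95% interval 0.69 to 2.29, counting error only). Cxcr6, the receptor of Cxcl16, had 10 and 19 counts, a ratio of 2.03 (interval 0.90 to 4.88). Both intervals include 1.

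Of 24 chemokine receptors listed, 7 were tested and 0 called, 1 with a positive and 6 with a negative log2 fold change (median -0.17). With 1 library left out this median ran from -0.26, when it was LIPUS library 2, to -0.02, when it was LIPUS library 3. The one with a positive value was Cx3cr1, the fractalkine receptor of monocytes and macrophages, with 16.5, 14.3 and 15.5 CPM with LPS and 16.1, 30.005 and 17.8 CPM with LIPUS. LIPUS library 2 alone stood apart. Its log2 fold change was 0.46 ± 0.17 (edgeR adjusted p = 0.892) and 0.13 without that library. Cxcr4, the receptor of Cxcl12, had 2.90 ± 0.60 and 2.12 ± 0.25 CPM and a log2 fold change of -0.45 ± 0.25. For Ccr10, Cxcr5 and the decoy-like receptor Ccrl2, the log2 fold changes were -0.12 ± 0.20, -0.21 ± 0.36 and -0.08 ± 0.13 (edgeR adjusted p = 0.999 for these and Cxcr4).

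Genes that carry the signal of chemokine receptors could all be tested. Of the 24 listed, all passed the filter and 0 were called, with 5 positive and 19 negative log2 fold changes and a median of -0.04. The smallest p values belonged to Pik3r5, a regulatory subunit of PI3K-gamma, at -0.10 ± 0.05, Rgs1, which shortens G protein signals, at -0.10 ± 0.06, and Arrb2, a beta-arrestin, at 0.08 ± 0.06. Each had an adjusted p of 0.999 by edgeR. The groups of Pik3r5 did not overlap, with 339 ± 2.88 CPM with LPS and 317 ± 9.69 CPM with LIPUS.

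Of 26 genes that feed into chemokine transcription, 25 were tested and 0 called, with 7 positive and 18 negative log2 fold changes and a median of -0.02. Ifnb1, which encodes interferon beta, was the untested one, with 4 counts in the LPS group and 0 in the LIPUS group. Rel, an NF-kB subunit, had 76.9, 66.0 and 82.1 CPM with LPS and 87.5, 87.5 and 90.4 CPM with LIPUS. The groups did not overlap, and the log2 fold change of 0.24 ± 0.07 missed the threshold (edgeR adjusted p = 0.699). Ticam1, the adaptor that leads from Tlr4 to interferon regulatory factors, was at -0.12 ± 0.06. Nfkbiz, a nuclear cofactor of NF-kB, was at 0.11 ± 0.06 (edgeR adjusted p = 0.999 for both).

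All 10 genes of the mRNA decay list were tested and 0 called, with 3 positive and 7 negative log2 fold changes. The median of -0.008 lay between -0.015 and 0.016 with 1 library left out, so it had no stable sign. An unadjusted p below 0.05 was found for 3 of the 10, beside 4.61% of all genes tested, and these were Rc3h1, Hnrnpd and Zfp36. The list was chosen with earlier results of these data known, so this share cannot be read as an excess in decay genes. Rc3h1, which encodes the RNA-binding protein roquin, averaged 242 ± 21.6 CPM in LPS and 267 ± 9.76 CPM in LIPUS libraries, a log2 fold change of 0.14 ± 0.06. Hnrnpd, which encodes an AU-rich element binding protein, was at 0.20 ± 0.08, and Zfp36 was at -0.22 ± 0.10. The adjusted p of each was 0.999 by edgeR. Zfp36 had 250.9, 338.1 and 334.5 CPM with LPS and 253.1, 230.5 and 310.6 CPM with LIPUS, so LPS library 1 lay among the LIPUS libraries.

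Of 11 genes for proteases and other factors that process chemokines, 10 were tested and 0 called, with 5 positive and 5 negative log2 fold changes and a median of -0.0009, whose sign turned with other scalings. Cpe, a carboxypeptidase, averaged 7.32 ± 0.61 CPM in LPS and 8.66 ± 0.64 CPM in LIPUS libraries, a log2 fold change of 0.24 ± 0.14 with groups that did not overlap. Ctss, the lysosomal protease cathepsin S, was at -0.05 ± 0.05, and Mmp12, the macrophage elastase, was at -0.46 ± 0.47. All 3 had an adjusted p of 0.999 by edgeR. Adam10, the protease that releases Cxcl16, lies outside the rule for named genes and averaged 81.7 ± 5.79 CPM in LPS and 84.0 ± 11.6 CPM in LIPUS libraries.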

How the data were processed

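Poly(A)-selected RNA of 6 libraries was sequenced as paired-end reads, per the labels' protocols, with bcl2fastq and the build mm10 named in the submitters' processing notes. For the aligner, the counter and the use of strand, nothing was given in the sources used here. The authors deposited raw read counts per gene and per transcript, with gene length. The TPM values, deposited by the authors, divide the count by length and are scaled to the same total per library. The authors' deposited table of their comparison gives a log2 fold change, an unadjusted p-value and normalised counts, a signal on the scale of the counts, per the file headers.

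From the deposited counts, edgeR 4.0.16 (R 4.3.3) gave the quasi-likelihood test with TMM scaling, group as the only term (n = 3 each), two-sided, after filterByExpr with a minimum count of 10, which kept 12571 of 39089 genes. P-values were adjusted by Benjamini-Hochberg over all tested genes, with a threshold of 0.05. Fold changes are LIPUS over LPS, and intervals are 95%. The script was tested on simulated data. Alternatives were DESeq2 1.42.0, limma 3.58.1 (voom, and trend on log2(TPM + 1)), edgeR's exact test, other scalings and filters, a replicate block and leaving out each library. Total counts of 14171061 to 15956693 per library gave a median SE of 0.09 on the log2 scale over all genes. Ratios of genes below the filter have exact intervals that cover counting error only.

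The chemokines and the gene lists were chosen with earlier results of these data known. Named genes are the 10 chemokines, the 3 genes of smallest p in each other pathway list, every other chemokine or receptor with a mean of at least 1 CPM, and the 5 genes most like Ccl2. Promoters come from RefSeq (GRCm38.p6) and transcript ends from GENCODE M21 (GRCm38). The deposited coordinates of all 10 genes equal those of RefSeq GRCm38.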

Additional observations from a re-analysis of the deposited data

How the results depend on the processing

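None of the 10 chemokines passed the threshold under any alternative run: over 149 alternative values the lowest adjusted p was 0.489, and the sign of the log2 fold change turned in 10, each time with a library left out. Leaving out 1 library at a time gave log2 fold changes of -0.33 to -0.14 for Ccl2, -0.063 to 0.092 for Ccl3, -0.062 to 0.12 for Ccl4, -0.039 to 0.10 for Ccl5, -0.29 to 0.10 for Ccl7, -0.061 to 0.078 for Ccl9, -0.018 to 0.82 for Ccl22, -0.063 to 0.22 for Cxcl2, 0.11 to 0.61 for Cxcl10 and -0.088 to -0.0042 for Cxcl16. For the other named genes whose sign turned, the ranges were -1.13 to 0.12 for Mmp12, -0.60 to 0.21 for Pf4, -0.27 to 0.075 for Ccr10, -0.57 to 0.026 for Cxcr5 and -0.26 to 0.030 for Ccrl2. They were -0.069 to 0.17 for the curated and -0.073 to 0.13 for the predicted Ccl4 transcript. With no filter on low counts, 31 genes and 242 transcripts were called, and the 1 chemokine receptor called was Cx3cr1 (adjusted p = 0.00735; 0.380 to 1.00 over the leave-one-out fits). By edgeR's exact test 10 genes were called. Leaving out 1 library gave 0 to 6 genes and 0 to 10 transcripts. Same-numbered libraries had correlations of -0.0015, -0.10 and 0.0044 between their deviations from the group means, beside -0.083 to 0.086 for other pairs. These values show no closer likeness by number but cannot exclude a paired design with small shared effects. A fit with the replicate block called 5 genes, none of the 10 chemokines, and 11 transcripts. The cause of these changes was not tested. Depth limits Ccl22, Cxcl10 and Ccl7 most: each had under 50 counts in every library. The other scalings moved the median of all genes by less than 0.1 on the log2 scale, and no chemokine changed sign with them.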

Other observations

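Among chemokines too low to test, the ones with the most counts were Cxcl11, a second interferon-inducible ligand of Cxcr3, with 5 counts over the LPS and 11 over the LIPUS libraries, and Cxcl14, also with 5 and 11. Relative to depth each had a ratio of 2.35 (95% interval 0.75 to 8.62, counting error only). Xcl1, a lymphocyte chemokine, had 8 and 4 counts, a ratio of 0.53 (interval 0.12 to 1.99). Ackr4, a scavenging receptor of homeostatic chemokines, had 14 and 19 counts (ratio 1.45, interval 0.69 to 3.12), and Ccr3, the receptor of eosinophils, had 10 and 2 (ratio 0.21, interval 0.02 to 1.00). These genes were chosen after their values were seen.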
